A study of Mus musculus with 16 samples.

Results

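The microRNAs described here are the miR-34 family, which was measured in mouse heart tissue by every array probe named for mouse miR-34a, miR-34b or miR-34c, apart from the strands that the array marks with a star. That rule found 4 of the 1023 mouse microRNA probes, namely mmu-miR-34a, mmu-miR-34b-3p, mmu-miR-34b-5p and mmu-miR-34c, where mmu marks the mouse. The hearts came from C57BL/6 mice in a model of post-traumatic stress disorder that cages a mouse, protected by wire mesh, with an aggressor for 6 hours daily. Exposure lasted 1 day in the group T1R1, 2 days in T2R1 and 3 days in T3R1, and all exposed mice then rested for 1 day. The control mice were held in mesh boxes in a large cage with no aggressor, and their title code, C2R1, is not spelled out in the labels. Each of the 4 groups held 4 samples, and the labels describe total RNA taken from individual hearts. The protocol text of the labels gives 5 or 10 days of exposure, which differs from the design text and from the group codes used here. No ages and no altered genes are given in the labels.

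MicroRNAs of the miR-34 family are short RNAs that guide silencing proteins to messenger RNAs through their seed, the bases near the 5′ end. Their genes are direct targets of the tumour suppressor p53, and in mouse and human cells miR-34a represses genes of the cell cycle and of survival, such as Cdk6, Bcl2 and Sirt1. In the mouse heart miR-34a is known to increase with age and after infarction, and there it represses Ppp1r10. The miR-34b and miR-34c strands come from one shared transcript that is best known from testis and from ciliated epithelium.

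The strands are shown because the seed decides which messenger RNAs a microRNA can pair with, and the measured strands do not all carry the same one. The mature sequences are those of RefSeq on the build GRCm38.p6, written 5′ to 3′ with the seed, bases 2 to 8, in capitals. The probe names were matched by microRNA name, with the array's unstarred miR-34a taken as the 5p strand, since the array lists miR-34a* separately. The sequences of the probes themselves were not used here.
mmu-miR-34a-5p: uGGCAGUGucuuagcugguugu
mmu-miR-34b-5p: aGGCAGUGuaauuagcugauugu
mmu-miR-449a-5p: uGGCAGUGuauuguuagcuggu
mmu-miR-449c-5p: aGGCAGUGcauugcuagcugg
mmu-miR-34b-3p: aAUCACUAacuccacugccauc
mmu-miR-34c-3p: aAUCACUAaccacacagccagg
mmu-miR-34a-3p: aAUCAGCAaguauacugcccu
The first 4 strands share the seed GGCAGUG. The strand miR-34c-5p, which the array's unstarred miR-34c was taken to be, is known as a member of the same seed family and is named only. The strand miR-34b-3p carries another seed, AUCACUA, which it shares with miR-34c-3p. The 5p strands of miR-34a and miR-34b have the same base at 11 of 22 positions counted from the 5′ end, and miR-34a-5p and miR-449a-5p have the same base at 15 of 22. The 3p strands of miR-34b and miR-34c have the same base at 17 of 22. How far a probe for one of these strands also binds its relatives was not tested.

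The gene Mir34a lies on the plus strand at chr4:150068454-150068555 of GRCm38.p6, where the RefSeq gene table lists no overlapping gene. Mir34b lies on the minus strand at chr9:51103562-51103645 and Mir34c on the same strand at chr9:51103034-51103110, with 451 bases between their hairpins. Both overlap the bounds of the protein-coding genes Hoatz and Btg4 in that table, which gives no exons. The hairpins of Mir34a and Mir34b are shown because both arms of each were measured, with the mature arms in capitals.
Mir34a: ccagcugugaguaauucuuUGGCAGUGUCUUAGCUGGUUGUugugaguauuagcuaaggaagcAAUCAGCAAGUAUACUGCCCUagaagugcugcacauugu
Mir34b: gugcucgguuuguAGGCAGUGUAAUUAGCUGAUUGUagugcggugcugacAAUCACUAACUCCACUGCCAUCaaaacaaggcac

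The 16 samples were read on 8 arrays of 2 colours, and each array held 2 samples of the same group, with replicates 1 and 3 in the dye Hy3 and replicates 2 and 4 in Hy5. The slide numbers in the file headers fell into 2 separate ranges, called slide sets here, 1 with the control and T3R1 arrays and the other with the T1R1 and T2R1 arrays. The labels name no batch. The header times put all 8 scans on 1 day, with groups of both sets interleaved. In Hy3 the spots that mark array corners averaged 15723 ± 263 in the first set and 24784 ± 2125 in the second (SD, n = 4 arrays each). In Hy5 the same spots read 65.4 to 191 in the first set and 70.8 to 72.6 in the second. A difference of T1R1 or T2R1 from control or from T3R1 therefore cannot be told apart from a difference between slide sets. The pairs T3R1 and control, and T2R1 and T1R1, each share a set. Of the heart muscle markers, 3 of 4 were above the level of the virus probes in all usable samples, and the epithelial list, which includes the ciliated-cell microRNA miR-449a, had 7 of 8 members above it in no sample. In bulk tissue, fewer cells of a type and less of a microRNA per cell cannot be told apart.

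Of the 4 family probes, 2 gave a level above that of probes for human viruses. Here a probe counts as above that level in a sample if it exceeds the 95th percentile of the virus probes in the same sample, which lay between 6.62 and 6.95 on the normalized log2 scale. miR-34a was above it in 16 of 16 samples and miR-34b-3p in 15 of 16, the exception being control replicate 3. miR-34c was above it in 2 of 16 samples and miR-34b-5p in 0 of 16. Every probe was printed as 4 spots, and all 64 spot values of each member were kept. The SD between spots of a sample had a median of 0.066 for miR-34a, 0.063 for miR-34b-3p, 0.049 for miR-34b-5p and 0.050 for miR-34c, on the log2 scale. The scanner's own mark for well above background was set for all 32 spots of every member in each dye, so it did not separate these probes. The count for miR-34b-3p was 14 when outlier spots were kept and 14 in the deposited value table, and the other 3 counts did not move under any of the 7 other ways of scaling.

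miR-34a, the family member most studied in heart, was dim but above the virus level throughout. Its background-subtracted brightness, before any normalization, was 73.7 and 76.4 in the Hy3 control samples and 66.0 and 127 in the Hy5 ones. In T1R1 it was 102.8 and 118 in Hy3 and 132 and 183 in Hy5. In T2R1 it was 112 in both Hy3 samples and 105 and 157 in Hy5, and in T3R1 it was 68.2 and 88.3 in Hy3 and 74.6 and 76.6 in Hy5. The brightness was thus higher in T1R1 than in control in both dyes and higher in T2R1 than in control in Hy3, while in Hy5 a control sample lay inside the T2R1 range.

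After normalization the log2 level of miR-34a in control replicates 1 to 4 was 7.24, 7.20, 7.46 and 7.20. In T1R1 it was 7.44, 7.37, 7.72 and 7.56, and in T2R1 it was 7.60, 7.46, 7.54 and 7.28. In T3R1 it was 7.46, 7.14, 7.34 and 7.05. The T1R1 and control samples overlapped through control replicate 3, which stood above 2 of the T1R1 samples. The T2R1 and control samples did not overlap within either dye, with T2R1 higher, which was also true of 6.48% of the 1019 mouse probes with complete values and of 11.8% of the 220 among them that, like miR-34a, were above the virus level in 4 or more samples. The T3R1 samples spanned the control samples on both sides.

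The mean level of miR-34a was 7.27 ± 0.13 in control, 7.52 ± 0.15 in T1R1, 7.47 ± 0.14 in T2R1 and 7.25 ± 0.19 in T3R1 (SD, n = 4 each). On this scale T1R1 exceeded control by 0.25 ± 0.08 (SE), a ratio of 1.19, with an adjusted p of 0.252 in limma's moderated test over all mouse probes. T2R1 exceeded control by 0.20 ± 0.08, with a limma adjusted p of 0.509. T3R1 differed from control by -0.02 ± 0.08, with a 95% interval of -0.19 to 0.15 and a limma adjusted p of 0.989. None of these 3 differences passed the threshold of 0.05. Across all mouse probes 0.881% were called in T1R1 against control and 0.881% in T2R1 against control, against 0 of the 4 family members in each. In T3R1 against control limma called 0%, while 74 of 1022 probes had an unadjusted p under 0.05 and no family member did.

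**Figure D1:**
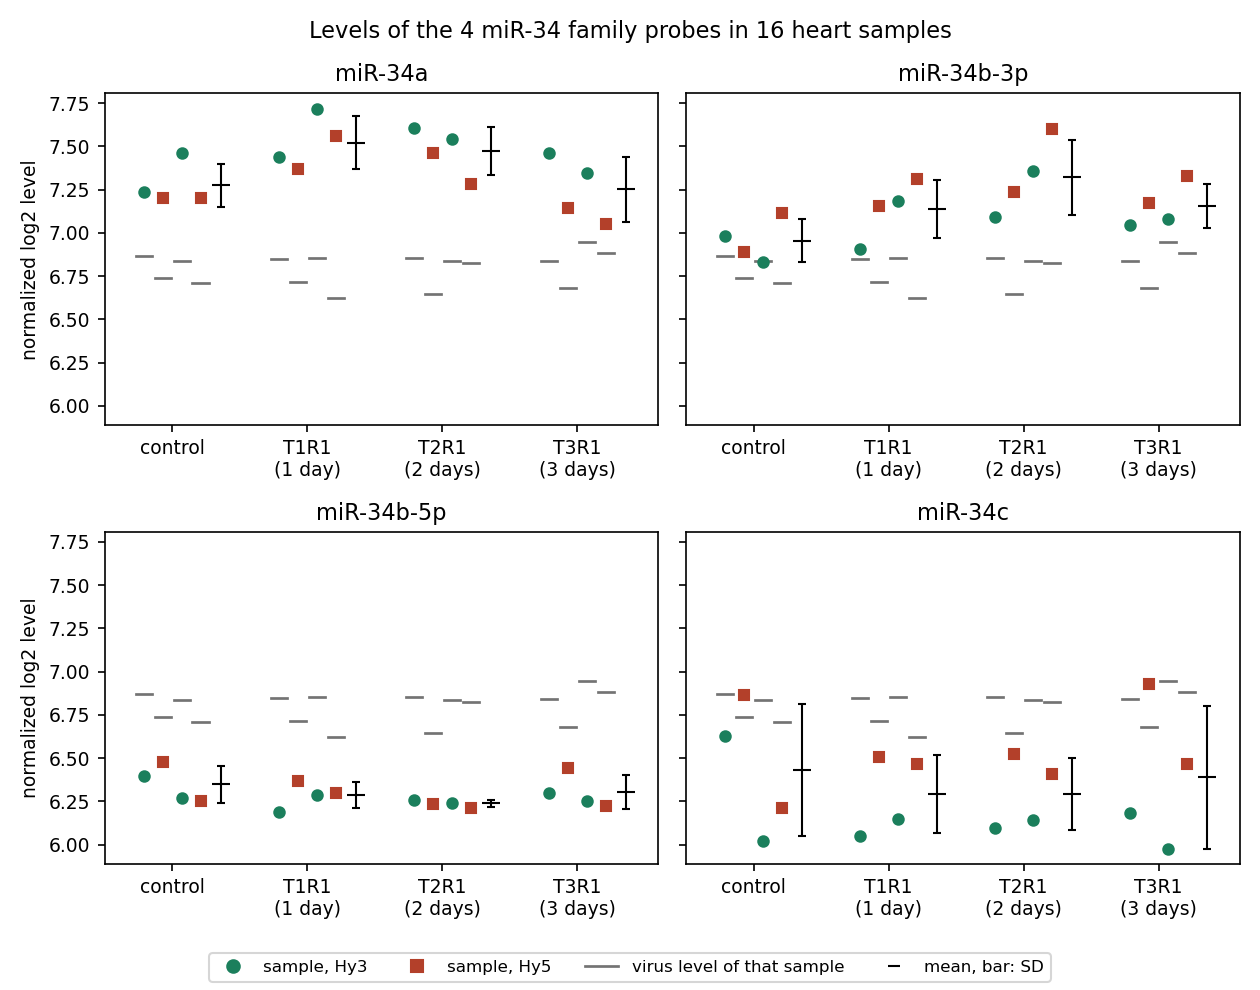
Normalized log2 level (vertical axis) of the 4 miR-34 family probes in every heart sample by group, with circles for Hy3, squares for Hy5, a short grey line for the virus level of that sample and a black mark with bar for the group mean and SD of 4 samples. miR-34a lies above the grey lines in 16 of 16 samples and miR-34b-3p in 15, while miR-34b-5p lies below them in all 16 samples and miR-34c in 14.

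Between the exposed groups, the mean level of miR-34a was lower after 3 days than after 1 or 2 days of exposure, but neither difference was called with all samples fitted. The T3R1 and T1R1 samples overlapped in Hy3, where T3R1 replicate 1 at 7.46 stood above T1R1 replicate 1 at 7.44. T3R1 was below T1R1 by 0.27 on the log2 scale, a difference of -0.27 ± 0.08 (SE) with a 95% interval of -0.44 to -0.10 and a limma adjusted p of 0.102. Without T1R1 replicate 1 that difference was -0.32 with a limma adjusted p of 0.038, and without the array of T1R1 replicates 1 and 2 it was -0.39 with one of 0.032. These were the only calls, in 1 of 16 fits that left out 1 sample each and 1 of 8 that left out 1 array each. Without the array of T1R1 replicates 3 and 4 the difference was -0.15. T3R1 was below T2R1 with a difference of -0.22 ± 0.08 and a limma adjusted p of 0.280, and the 2 groups did not overlap within either dye, while 8.33% of 1021 probes, and 14.4% of the 222 above the virus level in 4 or more samples, were apart in that direction. T2R1 and T1R1, which lie within a slide set, differed by -0.05 ± 0.08, with a 95% interval of -0.22 to 0.12 and a limma adjusted p of 0.999. In the order of mean levels, T1R1, T2R1, control and T3R1, no difference between neighbours passed the threshold. The background shares called were 2.74% in T3R1 against T1R1, 1.08% in T3R1 against T2R1 and 0% in T2R1 against T1R1, where 36 probes had an unadjusted p under 0.05, and no family member was called in any of them.

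The higher levels of miR-34a coincided with 1 slide set. Its mean was 7.50 ± 0.14 over the 8 samples of the set with T1R1 and T2R1 and 7.26 ± 0.15 over the 8 samples of the set with control and T3R1 (SD). The part of the slide set in these differences cannot be told apart from that of exposure. The dye also moved with the level, since the Hy3 sample was higher than the Hy5 sample on 8 of 8 arrays, by a mean of 0.19. Each group held 2 samples of each dye, and the model carried a dye term.

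miR-34b-3p, the strand with the other seed, was highest after 2 days of exposure. Its log2 level in control replicates 1 to 4 was 6.98, 6.89, 6.83 and 7.12. In T1R1 it was 6.91, 7.15, 7.18 and 7.31, in T2R1 it was 7.09, 7.24, 7.36 and 7.60, and in T3R1 it was 7.04, 7.17, 7.08 and 7.33. The T1R1 samples overlapped the control samples in Hy3, where T1R1 replicate 1 stood below control replicate 1, and stood above them in Hy5. The T2R1 samples stood above the control samples of the same dye, as did the T3R1 samples, and 6.48% and 4.42% of 1019 probes were higher in this way in T2R1 and in T3R1. Among the 220 probes above the virus level in 4 or more samples, these shares were 11.8% and 9.09%.

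The mean level of miR-34b-3p was 6.96 ± 0.13 in control, 7.14 ± 0.17 in T1R1, 7.32 ± 0.22 in T2R1 and 7.16 ± 0.13 in T3R1 (SD, n = 4 each). T2R1 exceeded control by 0.37 ± 0.10 (SE), a ratio of 1.29, with a 95% interval of 0.16 to 0.57 and a limma adjusted p of 0.115. T1R1 exceeded control by 0.18 ± 0.10 with a limma adjusted p of 0.669, and T3R1 exceeded it by 0.20 ± 0.10 with a limma adjusted p of 0.724. The T3R1 difference lies within a slide set, and its 95% interval was -0.01 to 0.41. Among the exposed groups T2R1 differed from T1R1 by 0.18 ± 0.10, T3R1 from T1R1 by 0.02 ± 0.10 and T3R1 from T2R1 by -0.17 ± 0.10, with limma adjusted p values of 0.999, 0.957 and 0.629. The order of means was T2R1, T3R1, T1R1 and control, and no difference between neighbours passed the threshold.

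Before normalization the background-subtracted brightness of miR-34b-3p ranged from 40.3 to 79.0 in control, from 62.6 to 118 in T1R1, from 67.5 to 217 in T2R1 and from 48.7 to 108 in T3R1. The highest value belonged to a single T2R1 sample in Hy5, and the other T2R1 sample in that dye read 72.2, below control replicate 2 at 79.0. In Hy3 the T2R1 samples read 67.5 and 93.2, while control replicate 1 read 69.2. The T3R1 samples also overlapped the control samples in both dyes. T2R1 and T3R1 thus stood apart from control within each dye only after normalization. Without the array of T2R1 replicates 3 and 4, the T2R1 difference from control was 0.21, and without that of replicates 1 and 2 it was 0.52 with a limma adjusted p of 0.027. That was the only call among the 8 fits that left out 1 array each. The Hy5 sample was higher than the Hy3 sample on 7 of 8 arrays, the opposite dye to miR-34a.

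**Figure D2:**
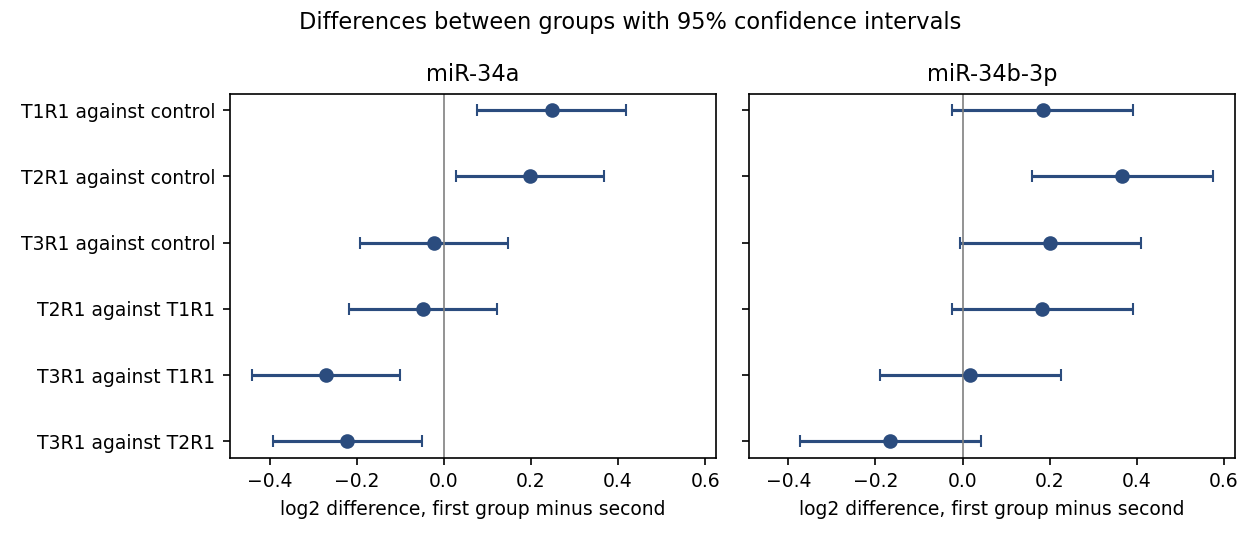
Log2 difference, first group minus second (horizontal axis), for each of the 6 comparisons, with points for the limma estimate and bars for its 95% confidence interval, for miR-34a and miR-34b-3p. Before adjustment over the probes, the miR-34a intervals of T1R1 and T2R1 against control lie above 0. Those of T3R1 against T1R1 and T2R1 lie below it. For miR-34b-3p only the interval of T2R1 against control leaves out 0. Such intervals were common among probes above the virus level in 4 or more samples. An unadjusted limma p under 0.05 in the same direction was found for 17.6% of them in T1R1 and 10.8% in T2R1 against control. It was found for 27.8% in T3R1 against T1R1 and 17% in T3R1 against T2R1. The bars use the array correlation over all mouse probes, which was lower than that over bright probes alone.

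The size of these differences moved with the scaling of the signals. The offset of 50 added in the background correction compresses differences of dim probes, and without it T2R1 exceeded control in miR-34b-3p by 0.59, with a limma adjusted p of 0.208. When each channel was centred on its median in place of the step that equalizes distributions between arrays, miR-34a was higher than control by 0.66 in T1R1 and by 0.59 in T2R1, with limma adjusted p values of 1.5e-04 and 4.7e-04. Under the same centring the miR-34b-3p differences were 0.46 in T1R1 and 0.68 in T2R1, with limma adjusted p values of 0.044 and 0.0058, and T3R1 stood above control in miR-34a by 0.20, which turned its direction. That centring called 19.0% of mouse probes in T1R1 against control, so the calls of these 2 members are not particular to them. With no step between arrays the median of all mouse probes itself fell by 0.59 in T1R1, by 0.62 in T2R1 and by 0.62 in T3R1 against control, and T2R1 was then below control in miR-34a by 0.03 and T1R1 and T3R1 below it in miR-34b-3p. Relative to those medians, miR-34a was higher by 0.65 in T1R1, 0.59 in T2R1 and 0.20 in T3R1, and miR-34b-3p by 0.45, 0.67 and 0.35. These values nearly repeat those of median centring, which subtracts each sample's median from the same signals.

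**Figure D3:**
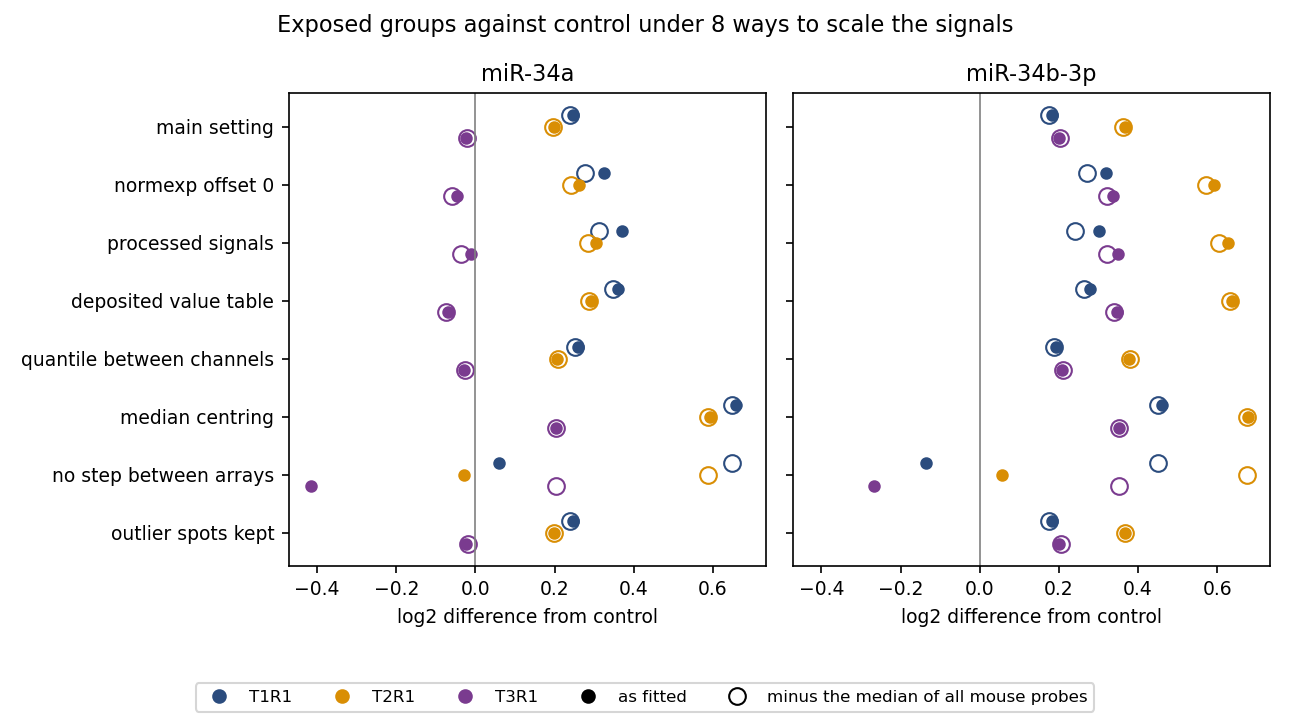
Log2 difference of each exposed group from control (horizontal axis) for miR-34a and miR-34b-3p under 8 ways of scaling the signals (rows), with filled points as fitted and open rings after subtraction of the median difference of all mouse probes. The rings of T1R1 and T2R1 lie above 0 in all 8 rows for both microRNAs, whereas those of T3R1 lie below 0 for miR-34a except under median centring and with no step between arrays, at 0.20. The rows are not separate checks. The rings of median centring and of no step match by construction, and with outlier spots kept the filled points are those of the main setting.

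An exact permutation test over samples, two-sided and with 70 regroupings, was also run on the level of each member against control. With 4 samples against 4 its smallest possible p is 0.0286. After adjustment over the 12 tests, 7 of them would have to reach that smallest p for any to pass, so the adjusted test says little here. It also treats the samples as separate, although pairs of them share an array. The unadjusted exact p of miR-34a was 0.0857 in T1R1 and 0.0571 in T2R1. For miR-34b-3p it was 0.143 in T1R1, 0.0571 in T2R1 and 0.0857 in T3R1. The adjusted values of these 5 tests were 0.206 or 0.286, and that of miR-34a in T3R1 was 0.857.

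miR-34b-5p shares its seed with miR-34a and its hairpin with miR-34b-3p, and it had no level above that of the virus probes in any group. Its log2 level ranged from 6.25 to 6.48 in control, from 6.19 to 6.37 in T1R1, from 6.21 to 6.26 in T2R1 and from 6.23 to 6.44 in T3R1. Its T2R1 samples stood below the control samples of the same dye, as did those of 4.51% of 1019 mouse probes. The unadjusted p of the exact permutation test there was 0.0571, as for miR-34a and miR-34b-3p in T2R1. The distance below the virus level of the same sample was between 0.24 and 0.69 in size. In Hy5 its background-subtracted brightness lay between -7.36 and 17.5, and in Hy3 between 21.2 and 29.2. Both sides of each comparison were at the virus level, so its log2 differences under other ways of processing compare levels there and are not read as ratios.

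miR-34c was above the virus level only in control replicate 2, at 6.86, and in T3R1 replicate 2, at 6.93, both in Hy5. Its log2 level ranged from 6.02 to 6.86 in control, from 6.05 to 6.51 in T1R1, from 6.10 to 6.53 in T2R1 and from 5.98 to 6.93 in T3R1. The Hy5 sample was higher on 8 of 8 arrays, by a mean of 0.39, which exceeded every mean difference between groups for this probe. After adjustment for dye, the levels of miR-34b-5p and miR-34c across the 16 samples correlated with each other at r = 0.84. Those of miR-34a and miR-34b-3p, adjusted in the same way, correlated at 0.28. These correlations describe samples that share arrays and dyes.

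Of the 5 probes for opposite strands and seed relatives, 1 exceeded the virus level in any sample. miR-34c*, the strand with the seed of miR-34b-3p, was above the virus level in 10 of 16 samples, with a mean log2 level of 6.95 ± 0.16 in control, 6.90 ± 0.17 in T1R1, 6.85 ± 0.25 in T2R1 and 6.89 ± 0.27 in T3R1 (SD, n = 4 each). miR-34a* was above it in 0 of 16. The microRNAs miR-449a, miR-449b and miR-449c, relatives of miR-34 known from ciliated cells, were above it in 0 of 16 samples each. None of these 5 probes was called in any of the 6 comparisons.

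The p53-linked microRNAs form a list of 15 names, of which 14 had a probe. Most of the links come from human cells, where miR-192, miR-194 and miR-215 are induced by p53, the processing of miR-16, miR-143 and miR-145 is promoted by it, and miR-125b, miR-25, miR-30d and miR-504 are reported to repress its messenger RNA. Of the 14 probes, 8 were above the virus level in 4 or more samples. In T1R1 against control 13 could be tested, since miR-143 had no usable control spot, and 8 were higher and 5 lower, with a median difference of 0.03 beside 0.01 over all mouse probes, and 0 were called. In T2R1 against control 7 were higher and 6 lower, with a median of 0.02 beside 0.003, and 0 were called. Over all mouse probes 573 of 1021, 530 of 1022 and 502 of 1022 were higher in T1R1, T2R1 and T3R1 against control. In T3R1 against control 2 of the list were higher and 11 lower, with a median of -0.06 beside -0.001, and again 0 were called. These counts depended on the scaling: with median centring 11, 11 and 10 of the 13 were higher in T1R1, T2R1 and T3R1, with 7, 6 and 0 called, while 19.0%, 15.8% and 2.15% of all mouse probes were called. With no step between arrays 5, 5 and 0 were higher, with 2, 2 and 4 called lower, while 59.8%, 64.4% and 69.2% of all mouse probes were called and their median fell as given above.

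In T3R1 against T1R1, 13 of the 14 p53-linked probes were lower, with a median difference of -0.21 beside -0.01 over all mouse probes, and 1 was called, while 2.74% of all mouse probes were. Among the probes above the virus level in 4 or more samples the median was -0.06, and 27.8% were lower with an unadjusted p under 0.05. The called one was miR-30d, whose mean level was 0.30 lower in T3R1, a difference of -0.30 ± 0.07 (SE) with a limma adjusted p of 0.031. This call was kept in 9 of 16 fits that left out 1 sample each and was lost under 10 of 14 other settings. The difference under these 14 ran from -0.59 to -0.30. Where the call was lost the limma adjusted p ran from 0.067 to 0.778, and it was 0.072 with quantile scaling, 0.161 with the array correlation of bright probes and 0.321 with the samples of an array averaged. Among the members of the list that were not called, miR-125b-5p differed by -0.51 ± 0.19, with a limma adjusted p of 0.183, and miR-145 by 0.06 ± 0.08. Markers of several cell types were lower in the same comparison. In T3R1 against T1R1 the heart muscle list had 4 of 4 probes lower, with a median of -0.43 and 0 called, and a summed log2 level of 12.5 to 13.0 in T1R1 and 11.8 to 12.8 in T3R1. The endothelial list had 2 of 2 lower, with a median of -0.44, and 1 of them, miR-126-3p, named after its values were seen, was called at -0.56 ± 0.13 (SE) with a limma adjusted p of 0.036. Its sum ranged from 11.6 to 12.0 in T1R1 and from 10.9 to 11.6 in T3R1. The leukocyte list had 4 of 5 lower, with a median of -0.22 and 0 called, and sums of 9.42 to 9.93 in T1R1 and 9.28 to 9.43 in T3R1. The smooth muscle list had 1 of 2 lower. The erythroid list had 3 of 3 lower, with a median of -0.54 and 0 called. Its summed level on the log2 scale ranged from 12.2 to 13.7 in T1R1 and from 8.89 to 11.9 in T3R1, in sums that leave out its member miR-451 in the 4 of 16 samples with no usable spot. The part of these markers in the result was not tested. In T3R1 against T2R1, 13 of 14 p53-linked probes were lower and 0 were called. Over all mouse probes 582 of 1023 were lower there, as were 129 of the 224 above the virus level in 4 or more samples, and 1.08% of all were called.

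miR-30d was also the probe whose pattern over samples was most like that of miR-34a. Likeness was measured as Pearson's r of the log2 levels, adjusted for dye, over all 16 samples. It was taken against the 216 other mouse probes above the virus level in 4 or more samples and with complete values. For miR-34a the highest values belonged to miR-30d at 0.96, miR-133a* at 0.92 and miR-22* at 0.87. Without the 2 samples farthest from the median these were 0.93, 0.92 and 0.84, and after subtraction of group means they were 0.91, 0.88 and 0.77. For miR-34b-3p they were miR-665* at 0.89, miR-5097 at 0.83 and miR-7a-2* at 0.82, and 0.79, 0.88 and 0.66 without the 2 farthest samples. The points share arrays, dyes and the scaling step, so these values are a description with no test.

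The sample values of miR-30d followed the same order of groups as miR-34a. In control replicates 1 to 4 the log2 level of miR-30d was 7.68, 7.57, 7.82 and 7.70. In T1R1 it was 7.94, 7.77, 8.11 and 7.97, in T2R1 it was 7.98, 7.86, 7.91 and 7.71, and in T3R1 it was 7.83, 7.52, 7.74 and 7.47. As with miR-34a, T1R1 replicate 3 was the highest and T3R1 replicate 4 the lowest of the 16 samples.

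**Figure D4:**
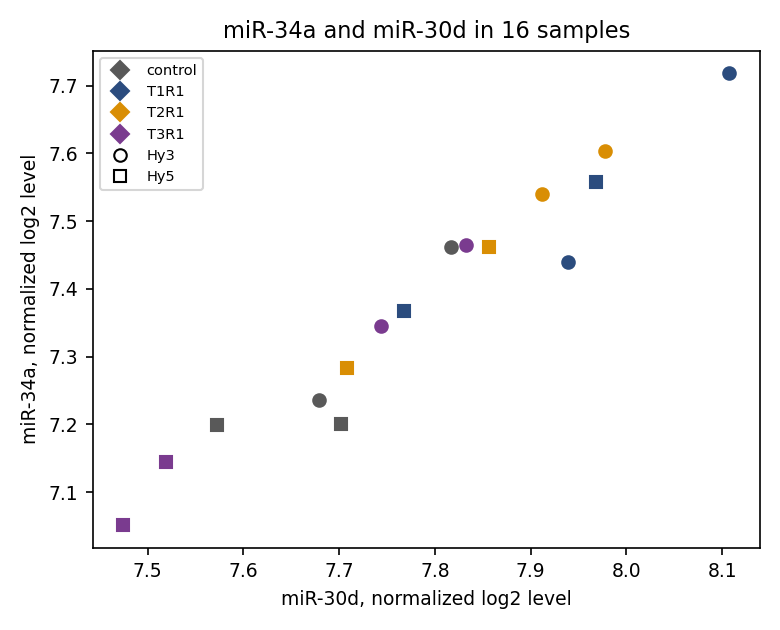
Normalized log2 level of miR-34a (vertical axis) against that of miR-30d (horizontal axis) in the 16 samples, with colours for groups, circles for Hy3 and squares for Hy5. The plotted levels are not adjusted for dye. The samples run along one line, from T3R1 replicate 4 at the lower left to T1R1 replicate 3 at the upper right, with r = 0.96 after adjustment for dye.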

How the data were processed

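For each of 8 locked nucleic acid arrays the authors deposited a file of spots with the intensity of both channels, before background subtraction. The file headers name the software as Agilent Feature Extraction, version 9.5.3.1. Log2 values of all 16 samples were also deposited as a table, for which the sources used here give no method. Its columns share the same median of 3.7584, so their medians had been made equal, and the step that did so is unknown.

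In R 4.3.3 with limma 3.58.1, background was corrected with normexp (offset 50), dyes by loess within arrays with control spots at weight 0, and arrays by Aquantile. Spots marked as outliers (1.69% to 5.52% per sample) were left out, and the spots of a probe were averaged. The 1023 mouse probes were fitted with a mean per group, a dye term and the array as a random block (correlation 0.250), followed by eBayes. P values were adjusted by Benjamini-Hochberg over all tested probes, and a probe was called under 0.05. The median SE of a difference was 0.06, and 0.09 over the 224 probes above the virus level in 4 or more samples. The number of arrays limits the precision. The median raw signal per sample was 41.2 to 73.7, and 164 to 241 mouse probes were above the virus level. The fit was checked on simulated data with an array correlation of 0.25 for every probe and no dye or slide-set effect. Over the probes above the virus level in 4 or more samples the array correlation was 0.643, so that check does not cover their SEs and p values.

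Groups came from the labels. Equal replicate numbers did not pair the samples: 8 of 24 pairs of same-numbered samples had deviations correlated above 0.1, so no block was used. The text names every family probe, its opposite strands, its seed relatives, and the p53-linked probes called or with the lowest p, plus the 3 probes most like each detected member. Alternatives changed the background correction, scaling, filter, array and dye terms, samples fitted and samples left out. The members and lists were chosen with earlier results of these data known. Sequences and positions are from RefSeq, GRCm38.p6.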

Additional observations from a re-analysis of the deposited data

Results flagged for a closer look

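Among 16 groups of 4 samples, 1 for each family probe and group, 1 held a sample far from the others. The log2 level of miR-34a in control replicate 3 was 7.46, and the gap to the next control sample made up 0.861 of the range of the group, above the 95% critical value of Dixon's test for 4 samples. Chance gives about 1 such group in 20. Without control replicate 3, T2R1 exceeded control in miR-34a by 0.23.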

How the results depend on the processing

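Over the settings that left out no sample, 332 differences of single family probes were recomputed, of which 300 kept direction and side of the threshold. Fits that changed only the model terms, the probe filter or the groups fitted returned the same differences. So did keeping outlier spots, as no spot of a member had been left out. Direction could thus turn only under the other ways of scaling, and the count of 300 says little about it. Values below are log2 differences, named by group against control unless 2 groups are given. Median centring gave calls for miR-34a in T1R1 (0.66), T2R1 (0.59), T3R1 against T1R1 (-0.45) and T3R1 against T2R1 (-0.39), and for miR-34b-3p in T1R1 (0.46) and T2R1 (0.68). It turned miR-34a in T3R1 (0.20), miR-34b-3p in T3R1 against T1R1 (-0.11) and miR-34c in T2R1 against T1R1 (-0.010). With no step between arrays, where the median of all probes fell by 0.59 to 0.62 against control, miR-34b-5p was called in T1R1 (-0.65), T2R1 (-0.73) and T3R1 (-0.66). There miR-34a in T2R1 (-0.029), miR-34b-3p in T1R1 (-0.14), T3R1 (-0.27) and T3R1 against T1R1 (-0.13), miR-34b-5p in T3R1 against T1R1 (-0.0067) and miR-34c in T2R1 against T1R1 (-0.034) turned. Probes at the virus level turned elsewhere too. Processed signals turned miR-34c in T1R1 (0.53), T2R1 (0.43), T3R1 (0.53), T2R1 against T1R1 (-0.094) and T3R1 against T1R1 (-0.0026), and miR-34b-5p in T3R1 (0.051). The deposited table turned miR-34b-5p in T1R1 (0.14) and T3R1 (0.24) and miR-34c in T3R1 (0.13) and T2R1 against T1R1 (-0.012). An offset of 0 turned miR-34c in T3R1 (0.084) and T2R1 against T1R1 (-0.068), and quantile scaling the latter (-0.0056). The cause was not tested.

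The share of mouse probes called in T1R1, 0.881% with 7 higher and 2 lower, was 19.0% with median centring (179 higher, 15 lower), 59.8% with no step between arrays (9 higher, 602 lower), 1.67% with no array block, 1.80% of bright probes alone (4 of 222), 0.294% with only the groups compared, 0% with the samples of an array averaged, and 0.098% with offset 0, the deposited table, quantile scaling or the array correlation of bright probes (0.643). In T2R1, also 7 higher and 2 lower, it was in that order 15.8% (152 higher, 9 lower), 64.4% (5 higher, 653 lower), 1.57%, 1.35%, 0.391% and 0.196%, and then 0.196% with offset 0 and 0.294% with the correlation of bright probes. In T3R1, 0% as reported, it was 2.15% with median centring (22 higher) and 69.2% with no step (707 lower). In T3R1 against T1R1, 8 higher and 20 lower, it was 7.53% (2 higher, 75 lower), 0%, 4.21%, 6.73%, 1.57% and 0.196%, and then 0.391% with offset 0 or the correlation of bright probes (4 lower), 0.294% with processed signals, 0.293% with the deposited table and 0.685% with quantile scaling (1 higher, 6 lower). In T3R1 against T2R1, 4 higher and 7 lower, it was 3.42% with median centring (1 higher, 34 lower), 0.098% with no step, 1.76% with no array block, 1.34% of bright probes, 0.196% with arrays averaged, 0.391% with offset 0, processed signals or the deposited table (1 higher, 3 lower each), 0.587% with quantile scaling (1 higher, 5 lower) and 0.293% with the correlation of bright probes. Where the share rose among bright probes alone, the number called fell.

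Equal replicate numbers did not pair the samples, since correlations of deviations ran from -0.47 to 0.41 over 24 pairs and 6 of 16 samples were closest to their own number. With the replicate block in place of the dye term, miR-34b-3p in T2R1 was called at 0.37 with a limma adjusted p of 0.021, T2R1 gave calls for 1.37% of probes and T3R1 against T2R1 for 0.587%.

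Leaving out 1 sample, or both samples of 1 array, which was added after the data were examined, gave these ranges. The share called ran from 0.392% to 4.41% in T1R1, 0.489% to 3.52% in T2R1, 0% to 1.86% in T3R1, 0% to 0.098% in T2R1 against T1R1, 0.294% to 4.79% in T3R1 against T1R1 and 0.294% to 2.74% in T3R1 against T2R1. The highest shares, other than that of T2R1 against T1R1, were without the array of control replicates 1 and 2. For miR-34a the ranges were 0.13 to 0.36 in T1R1, 0.14 to 0.26 in T2R1, -0.080 to 0.034 in T3R1 (-0.094 to 0.044 for plain means), -0.17 to 0.068 in T2R1 against T1R1 and -0.39 to -0.15 in T3R1 against T1R1 and -0.28 to -0.16 in T3R1 against T2R1. For miR-34b-3p they were 0.075 to 0.29 in T1R1, 0.21 to 0.52 in T2R1, 0.14 to 0.25 in T3R1, 0.025 to 0.34 in T2R1 against T1R1, -0.091 to 0.13 in T3R1 against T1R1 and -0.32 to -0.0076 in T3R1 against T2R1. The values nearest 0 for T1R1 came without the array of T1R1 replicates 3 and 4. For miR-34b-5p they were -0.15 to 0.027 in T1R1, -0.13 to 0.045 in T3R1 and -0.047 to 0.084 in T3R1 against T1R1. For miR-34c they were -0.45 to 0.18 in T1R1 and in T2R1, -0.36 to 0.27 in T3R1, -0.023 to 0.032 in T2R1 against T1R1 and -0.072 to 0.26 in T3R1 against T1R1 and T2R1, and for plain means -0.28 to 0.0056 in T1R1, -0.28 to 0.0057 in T2R1 and -0.22 to 0.10 in T3R1. A group left with 1 array is assumed to vary like the others.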

Other observations

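The arrays also carried 4 probes named for human strands of the family, hsa-miR-34b, hsa-miR-34a*, hsa-miR-34b* and hsa-miR-34c-3p. Each was above the virus level in 0 of 16 samples. Their log2 levels lay between 6.05 and 6.44. The group means of hsa-miR-34c-3p, which carries the name of the strand with the seed of miR-34b-3p, were 6.23 in control, 6.25 in T1R1, 6.39 in T2R1 and 6.25 in T3R1. The names hsa-miR-34b and hsa-miR-34b* do not say which of them is the 3p strand. Neither was above the virus level in any sample, whereas the mouse probe miR-34b-3p was in 15 of 16. The level of hsa-miR-34b lay between 6.14 and 6.27. The reason for this difference between probes was not tested.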
